A study of Homo sapiens with 12 samples.

Results

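The genes described here are 10 genes of mitosis and of the passage from G2 into mitosis. They are the mitotic kinases AURKA, AURKB, PLK1 and TTK, the cyclins CCNB1, CCNB2 and CCNF, the partners of the anaphase-promoting complex UBE2C and CDC20, and the proliferation marker MKI67. They were taken by name, with every probe set that the array's platform annotation assigns to one of these symbols. All 10 were found among the 19775 genes with a probe set, and they have 20 of the 54675 probe sets. A probe set is a group of short probes read together as 1 signal. The arrays were Affymetrix expression arrays, and the deposited values are MAS5 intensities on a linear scale, called signal below. A probe set was tested when its signal was above 137, the middle value of the table, on 3 or more arrays. This left 18 of the 20 probe sets. The other 2 are further probe sets of AURKB and CCNB2, so every gene was tested through at least 1 probe set. The tested probe set with the highest mean signal stands for its gene.

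The arrays come from 3 established human soft tissue sarcoma cell lines. A-204 is labelled rhabdomyosarcoma, SK-LMS-1 leiomyosarcoma and VA-ES-BJ epithelioid sarcoma. Each line was given taurolidine at 250 µmol/l, taurolidine at 250 µmol/l with TRAIL at 50 ng/ml, or TRAIL at 50 ng/ml alone, or was left untreated, and all cells shared the same serum-containing medium and the same 6 h of incubation. Taurolidine is an antimicrobial compound derived from the amino acid taurine, and TRAIL is a ligand of the tumour necrosis factor family that triggers apoptosis through death receptors. There was 1 array for each line and treatment, 12 in all. No label says that arrays come from separate cultures, and the p-values therefore reflect the scatter of these arrays alone. The design asks how the mitosis genes differ with taurolidine, with and without TRAIL, and whether the 3 lines differ in the same direction.

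Entry into mitosis is driven by CDK1 bound to B-type cyclins, and PLK1 and the Aurora kinases act beside it on centrosomes, chromosomes and the spindle. TTK, also called MPS1, starts the spindle checkpoint, which holds back CDC20 until chromosomes are attached. CDC20 then activates the anaphase-promoting complex, and with its ubiquitin-conjugating enzyme UBE2C this complex marks the B-type cyclins for destruction. Transcripts of most of these genes are low in G1 and high in G2 and mitosis, through repression and activation at promoters that carry a CHR element, read by the DREAM and MuvB complexes, and CCAAT boxes, bound by NF-Y.

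The trimmed mean of every array lay between 1000.1 and 1000.2, which is the result of a scaling applied before deposit. The poly-A control transcripts added to the RNA, read by 27 probe sets, were higher with taurolidine by 0.72 (log2) in A-204 cells, 0.52 in SK-LMS-1 cells and 0.53 in VA-ES-BJ. Scaling the arrays to equal control signal moved the median change of all tested probe sets with taurolidine against untreated cells to -0.69, against -0.06 as deposited, and the changes below are relative to the deposited scaling unless stated. In the untreated cells the skeletal muscle markers MYOD1, MYOG, MYF5 and MYH3 lay under the table median in all 3 lines, A-204 included, DES lay close to it at 127 to 145, and TNNT1 read 5677 in A-204 cells, 1787 in SK-LMS-1 cells and 4133 in VA-ES-BJ. Of the 6 smooth muscle genes TAGLN, CNN1, MYH11, CALD1 and SMTN were brightest in SK-LMS-1, while ACTA2 read 4980 in VA-ES-BJ cells, against 1686 in SK-LMS-1 cells and 1667 in A-204. The keratin KRT19 read 16189 in VA-ES-BJ cells, against 9.33 in A-204 cells and 27.9 in SK-LMS-1, and the keratins KRT8 and KRT18 were also brightest there, whereas the epithelial genes EPCAM, CDH1 and MUC1 were brightest in A-204. SMARCB1, the SWI/SNF subunit lost in epithelioid sarcoma, read 152 in VA-ES-BJ cells, against 1235 in A-204 cells and 3530 in SK-LMS-1. The leukocyte markers PTPRC, CD14 and LYZ lay under the table median in all 3 lines, and CD3E read 147 in A-204 cells, 165 in SK-LMS-1 cells and 96.4 in VA-ES-BJ.

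The promoters are shown because CHR elements and CCAAT boxes are described for most of these genes, while the changes of the genes differed. RefSeq's table for GRCh38.p14 matched 7 of the 10 genes, the others being AURKA, TTK and UBE2C. Each window runs from 250 bases before to 50 bases after the annotated start and is written 5′ to 3′ on the gene's strand. The motifs searched on both strands were TTTGAA, the core of the CHR element, and CCAAT, and their matches are in capitals, with matches on the opposite strand reading TTCAAA and ATTGG. The CCNF window is chr16:2429197-2429496 on the plus strand, the MKI67 window chr10:128126374-128126673 on the minus strand, the PLK1 window chr16:23678639-23678938 on the plus strand and the CCNB2 window chr15:59104896-59105195 on the plus strand.
CCNF: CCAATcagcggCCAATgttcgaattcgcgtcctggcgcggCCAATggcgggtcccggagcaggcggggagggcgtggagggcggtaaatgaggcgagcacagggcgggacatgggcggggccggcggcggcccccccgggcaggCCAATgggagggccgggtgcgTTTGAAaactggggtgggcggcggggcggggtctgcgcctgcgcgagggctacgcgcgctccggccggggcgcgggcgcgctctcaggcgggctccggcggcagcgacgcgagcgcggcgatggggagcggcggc
MKI67: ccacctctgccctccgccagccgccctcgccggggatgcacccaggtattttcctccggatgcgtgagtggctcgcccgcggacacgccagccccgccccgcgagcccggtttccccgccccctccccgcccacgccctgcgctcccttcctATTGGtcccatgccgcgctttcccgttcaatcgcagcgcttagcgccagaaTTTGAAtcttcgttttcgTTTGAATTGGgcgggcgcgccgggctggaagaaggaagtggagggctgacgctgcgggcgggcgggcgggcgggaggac
PLK1: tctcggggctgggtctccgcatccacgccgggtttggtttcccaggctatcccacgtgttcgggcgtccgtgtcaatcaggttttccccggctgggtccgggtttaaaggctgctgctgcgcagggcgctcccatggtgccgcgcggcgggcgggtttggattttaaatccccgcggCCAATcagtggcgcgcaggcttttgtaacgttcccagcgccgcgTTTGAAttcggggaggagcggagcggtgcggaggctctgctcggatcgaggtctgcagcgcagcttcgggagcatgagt
CCNB2: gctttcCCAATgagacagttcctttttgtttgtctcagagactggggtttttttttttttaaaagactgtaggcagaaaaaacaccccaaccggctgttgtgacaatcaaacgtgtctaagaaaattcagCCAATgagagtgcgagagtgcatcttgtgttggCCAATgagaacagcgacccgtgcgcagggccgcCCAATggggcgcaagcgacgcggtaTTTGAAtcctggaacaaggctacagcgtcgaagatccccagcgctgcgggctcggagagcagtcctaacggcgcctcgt
TTTGAA was found in 5 of the 7 matched genes, namely PLK1, MKI67, CCNB2, CCNF and CDC20, against 15.2% of all 35116 promoter windows in the table. CCAAT was found in all 7, against 34.6% of all windows, and both motifs in 5 of 7, against 5.9%. The match nearest the start lay 29 bases upstream for TTTGAA in PLK1, MKI67 and CCNB2, and 85 bases upstream in CCNF. In MKI67 this match overlaps a CCAAT match on the opposite strand, which is why they form 1 run of capitals. A match is a description of these letters only. In the probe sets that stand for their genes, changes with taurolidine lay farthest apart between lines for CCNF and PLK1, and closest together for MKI67. These 3 genes each hold both motifs. The ranking depended on the probe set. Another probe set of MKI67 differed by 0.56 (log2) between A-204 and SK-LMS-1. The second of CCNF differed by 0.84 between A-204 and VA-ES-BJ, against 1.15 for PLK1.

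Taurolidine alone lowered 4 of the 10 genes and raised 1 on average over the 3 lines. CCNF fell by 2.33 ± 0.50 on the log2 scale, 5.02-fold, while AURKA, TTK and MKI67 fell by 0.63 to 0.67, and UBE2C rose by 0.51 ± 0.14 (fitted log2 change ± SE over 3 lines). AURKB, PLK1, CCNB1, CCNB2 and CDC20 did not pass. The 5 called genes compare with 15.2% of the 14221 genes tested at the same adjusted p of 0.05 (5.43% higher and 9.74% lower), from limma with Benjamini-Hochberg adjustment over all 32421 tested probe sets. The 10 genes were chosen with earlier results of these data known, so this and the later comparisons with all genes are descriptions. The median change of the 10 genes was -0.32, and that of all genes was -0.0031. In these bulk samples fewer cells in G2 or mitosis and less RNA per cell cannot be told apart. With the arrays scaled to equal poly-A control signal, 9 of the 10 genes were called lower, as were 55.9% of all tested probe sets, and UBE2C turned to -0.12, while without any 1 of the 3 lines, A-204, SK-LMS-1 or VA-ES-BJ, none of the 10 was called.

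**Figure D1:**
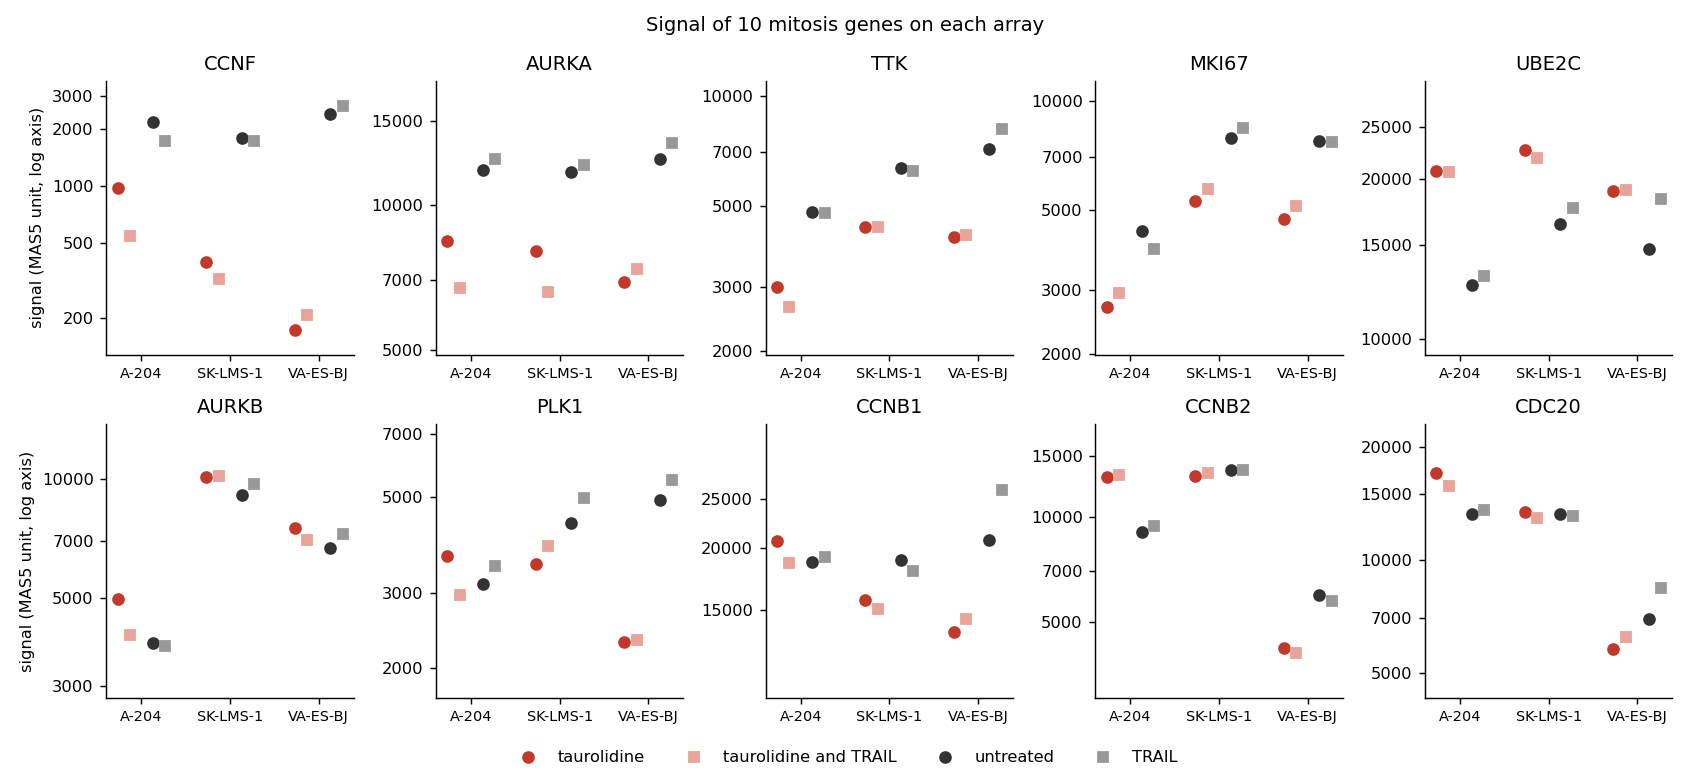
Signal of the 10 genes on each of the 12 arrays, on a log axis with its own range for each gene, for cells given taurolidine, taurolidine and TRAIL, nothing, or TRAIL, in each line, with 1 point for each array. CCNF, AURKA and TTK have all 6 arrays with taurolidine below all 6 without it, and UBE2C has all 6 above on the deposited scaling, which turns to -0.12 (log2, mean change with taurolidine alone) at equal poly-A control signal.

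CCNF, on chr16:2429447-2458854 (GRCh38.p14), encodes cyclin F, the substrate-binding subunit of an SCF ubiquitin ligase that acts in G2, and it had the largest change of the 10 genes in every line. Its signal with taurolidine was 978 in A-204 cells, 398 in SK-LMS-1 cells and 174 in VA-ES-BJ, against 2174, 1795 and 2401 in the untreated cells of the same lines. With both agents it was 546 in A-204 cells, 324 in SK-LMS-1 cells and 208 in VA-ES-BJ, against 1740, 1740 and 2663 with TRAIL alone. The groups did not overlap, as the brightest array with taurolidine was below the dimmest array without it. Within lines, where 2 arrays with taurolidine are set against 2 without, CCNF fell by 1.40 ± 0.25 in A-204 (2.63-fold, adjusted p = 0.012) and by 2.26 ± 0.25 in SK-LMS-1 (4.80-fold, adjusted p = 0.0047), and its change was -3.65 ± 0.25 in VA-ES-BJ (12.6-fold lower, adjusted p = 0.00097). The VA-ES-BJ value rests on signals little above the table median, and it was -3.03 with the table median as the added constant. The second probe set of CCNF ranged from 127 to 224 on the 6 arrays with taurolidine, against 609 to 985 on the 6 without, and fell by 2.08 ± 0.26 with taurolidine alone (adjusted p = 0.0035). Its changes were -1.70 in A-204, -2.07 in SK-LMS-1 cells and -2.54 in VA-ES-BJ, so both probe sets have the same order of lines. The difference of A-204 minus VA-ES-BJ was smaller in the second, at 0.84 ± 0.35 (adjusted p = 0.37 by limma), against 2.25 ± 0.36.

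CCNB1, on chr5:69167150-69178245, encodes the main B-type cyclin partner of CDK1. Its signal with taurolidine was 20597 in A-204 cells, 15721 in SK-LMS-1 cells and 13557 in VA-ES-BJ, against 18714, 18930 and 20759 in untreated cells. With both agents it was 18625, 15066 and 14389 in the same order of lines, against 19162, 17974 and 26112 with TRAIL alone. The A-204 arrays overlapped, and in both other lines the arrays with taurolidine lay below those without. CCNB1 fell in VA-ES-BJ by 0.74 ± 0.14 (1.67-fold, adjusted p = 0.024), and its change was -0.26 ± 0.14 in SK-LMS-1 (adjusted p = 0.29) and 0.05 ± 0.14 in A-204 (adjusted p = 0.84), the last of which turned to -0.67 at equal poly-A control signal and -0.20 after quantile normalisation. The second probe set of CCNB1 read 3613 with taurolidine and 3361 with both agents in VA-ES-BJ, against 6993 untreated and 6802 with TRAIL. It fell there by 0.98 ± 0.11 (adjusted p = 0.0041), and its change was 0.04 ± 0.11 in A-204 (adjusted p = 0.82).

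CCNB2, on chr15:59105146-59125045, encodes another B-type cyclin, and as deposited it moved in opposite directions in A-204 cells and VA-ES-BJ, although its A-204 change was -0.21 at equal poly-A control signal. With taurolidine the signal was 13058 in A-204 cells, 13117 in SK-LMS-1 cells and 4224 in VA-ES-BJ, against 9052, 13731 and 5984 in untreated cells. With both agents it was 13282, 13383 and 4087, against 9463, 13708 and 5740 with TRAIL alone in the same lines. Both taurolidine arrays were above both others in A-204 cells and below both others in SK-LMS-1 cells and VA-ES-BJ. CCNB2 rose by 0.51 ± 0.10 in A-204 (1.42-fold, adjusted p = 0.016), a direction that turned under that scaling, and it fell by 0.50 ± 0.10 in VA-ES-BJ (1.41-fold, adjusted p = 0.029). Its change in SK-LMS-1 was -0.05 ± 0.10 (adjusted p = 0.80), and the mean over lines with taurolidine alone was -0.01 ± 0.22 (adjusted p = 0.98). The second tested probe set of CCNB2 was dim, at 157 to 264 with taurolidine and 76 to 219 without, and changed by 0.19 ± 0.36 in A-204 (adjusted p = 0.76), by 0.43 ± 0.36 in SK-LMS-1 (adjusted p = 0.51) and by 0.19 ± 0.36 in VA-ES-BJ (adjusted p = 0.79), so it did not show opposite directions.

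AURKA, on chr20:56369390-56392215, encodes the Aurora kinase of centrosomes and spindle poles. Its signal with taurolidine was 8441 in A-204 cells, 8038 in SK-LMS-1 cells and 6915 in VA-ES-BJ, against 11849, 11755 and 12477 in untreated cells. The combination gave 6728, 6590 and 7365, against 12490, 12135 and 13463 with TRAIL alone. All 6 arrays with taurolidine were below all 6 without it, and the levels were close among the lines in each treatment. AURKA fell by 0.63 ± 0.12 with taurolidine alone (1.55-fold, adjusted p = 0.015), and within lines it fell by 0.69 ± 0.16 in A-204 (adjusted p = 0.024), by 0.71 ± 0.16 in SK-LMS-1 (adjusted p = 0.035) and by 0.86 ± 0.16 in VA-ES-BJ (adjusted p = 0.020). A second probe set ranged from 5661 to 7419 with taurolidine, against 10909 to 15675 without, and fell by 0.79 ± 0.17 with taurolidine alone (adjusted p = 0.024). The third, dim at 18 to 136 with taurolidine and 81 to 254 without, changed by -1.34 ± 0.45 (adjusted p = 0.086).

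TTK, on chr6:80004649-80042527, encodes the kinase that starts the spindle checkpoint. It read 2989 in A-204 cells, 4374 in SK-LMS-1 cells and 4098 in VA-ES-BJ with taurolidine, against 4800, 6345 and 7144 in untreated cells. Given both agents, cells read 2638, 4360 and 4150, against 4771, 6240 and 8140 with TRAIL alone. No array with taurolidine reached the lowest array without it. TTK fell by 0.67 ± 0.13 with taurolidine alone (1.59-fold, adjusted p = 0.015), and it fell in A-204 by 0.77 ± 0.12 (adjusted p = 0.0072), in SK-LMS-1 by 0.53 ± 0.12 (adjusted p = 0.040) and in VA-ES-BJ by 0.88 ± 0.12 (adjusted p = 0.0071).

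PLK1, on chr16:23678889-23690367, encodes polo-like kinase 1, which acts from mitotic entry to cytokinesis. With taurolidine its signal was 3655 in A-204 cells, 3489 in SK-LMS-1 cells and 2307 in VA-ES-BJ, against 3140, 4356 and 4915 in untreated cells. The arrays with both agents read 2959, 3839 and 2329, against 3458, 4966 and 5463 with TRAIL alone. The A-204 arrays overlapped, with the taurolidine array above the untreated one and the array of both agents below the TRAIL array. In VA-ES-BJ PLK1 fell by 1.16 ± 0.15 (2.23-fold, adjusted p = 0.0058), while its change was -0.34 ± 0.15 in SK-LMS-1 (adjusted p = 0.19) and -0.0027 ± 0.15 in A-204 (adjusted p = 0.99), and the A-204 value was 0.09 after quantile normalisation.

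AURKB, on chr17:8204731-8210575, encodes the Aurora kinase of the chromosomal passenger complex. Its signal with taurolidine was 4977 in A-204 cells, 10162 in SK-LMS-1 cells and 7527 in VA-ES-BJ, against 3855, 9104 and 6700 in untreated cells. Under both agents the signal was 4028, 10220 and 7020, against 3774, 9747 and 7263 with TRAIL alone. The signals with and without taurolidine overlapped over all arrays, and the 3 lines did not overlap one another in any treatment. AURKB passed in no line, with changes of 0.23 ± 0.13 in A-204 cells, 0.11 ± 0.13 in SK-LMS-1 cells and 0.06 ± 0.13 in VA-ES-BJ (adjusted p = 0.28, 0.64 and 0.83), all of which turned negative, to between -0.49 and -0.40, at equal poly-A control signal, as did VA-ES-BJ, to -0.013, after quantile normalisation.

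UBE2C, on chr20:45812644-45816952, encodes the ubiquitin-conjugating enzyme that works with the anaphase-promoting complex, and it was the only one of the 10 genes higher on all 6 arrays with taurolidine as deposited. Its signal with taurolidine was 20705 in A-204 cells, 22619 in SK-LMS-1 cells and 18956 in VA-ES-BJ, against 12602, 16436 and 14757 in untreated cells. Combined with TRAIL, taurolidine gave 20579, 21834 and 19024, against 13132, 17599 and 18325 with TRAIL alone. The gap was wide in A-204 cells and narrow in VA-ES-BJ, where the TRAIL array came close to those with taurolidine. UBE2C rose by 0.51 ± 0.14 with taurolidine alone (1.43-fold, adjusted p = 0.047) and by 0.68 ± 0.12 in A-204 (1.60-fold, adjusted p = 0.012), values that turned to -0.12 and -0.04 at equal poly-A control signal. Its change was 0.39 ± 0.12 in SK-LMS-1 (adjusted p = 0.10) and 0.21 ± 0.12 in VA-ES-BJ (adjusted p = 0.35). These signals are among the brightest of the 10 genes, and saturation of the probes was not tested.

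CDC20, on chr1:43358981-43363203, encodes the activator that the spindle checkpoint holds back. With taurolidine it read 16998 in A-204 cells, 13442 in SK-LMS-1 cells and 5797 in VA-ES-BJ, against 13245, 13233 and 6966 in untreated cells. The combination gave 15760, 12936 and 6236, against 13582, 13101 and 8408 with TRAIL alone. As for CCNB2, both taurolidine arrays were above both others in A-204 cells and below both others in VA-ES-BJ, while in SK-LMS-1 they overlapped. No line passed, with changes of 0.29 ± 0.13 in A-204 (adjusted p = 0.16, and -0.43 at equal poly-A control signal), 0.0022 ± 0.13 in SK-LMS-1 (adjusted p = 0.99, and -0.15 after quantile normalisation) and -0.35 ± 0.13 in VA-ES-BJ (adjusted p = 0.14).

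MKI67, on chr10:128096659-128126423, encodes Ki-67, a protein of the surface of mitotic chromosomes that is widely used as a marker of cycling cells. Its signal with taurolidine was 2694 in A-204 cells, 5284 in SK-LMS-1 cells and 4731 in VA-ES-BJ, against 4374, 7889 and 7779 in untreated cells. Given both agents, cells read 2947, 5711 and 5137, against 3892, 8411 and 7717 with TRAIL alone. Every line had both taurolidine arrays below both others, although A-204 was dimmer in all treatments, so the groups overlap when the lines are pooled. MKI67 fell by 0.66 ± 0.10 with taurolidine alone (1.58-fold, adjusted p = 0.0074), by 0.55 ± 0.12 in A-204 (adjusted p = 0.022), by 0.57 ± 0.12 in SK-LMS-1 (adjusted p = 0.031) and by 0.65 ± 0.12 in VA-ES-BJ (adjusted p = 0.021). Its 3 other probe sets changed by -0.67 ± 0.17 (adjusted p = 0.040), -0.59 ± 0.16 (adjusted p = 0.051) and -0.38 ± 0.15 (adjusted p = 0.14) with taurolidine alone, so 2 of the 4 passed and all had the same direction. In A-204 these 3 changed by -0.37, -0.24 and -0.40 (adjusted p = 0.16, 0.36 and 0.20 by limma), and none of them passed. Their adjusted p by limma was 0.017, 0.078 and 0.20 in SK-LMS-1, and 0.053, 0.0497 and 0.26 in VA-ES-BJ.

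Against TRAIL alone, cells given both agents had the same 4 genes lower, AURKA, TTK, MKI67 and CCNF, and none higher. These 4 of 10 compare with 12.3% of all genes called and 8.23% called lower. At equal poly-A control signal 8 of the 10 were called, beside 43.1% of all tested probe sets called lower. CCNF fell by 2.55 ± 0.50 (5.84-fold, adjusted p = 0.020), AURKA by 0.88 ± 0.12 (1.84-fold, adjusted p = 0.0055), TTK by 0.78 ± 0.13 (1.72-fold, adjusted p = 0.010) and MKI67 by 0.51 ± 0.10 (1.43-fold, adjusted p = 0.019). The other probe sets of MKI67 were lower too but did not pass (adjusted p = 0.058, 0.13 and 0.10 by limma). UBE2C did not pass, at 0.34 ± 0.14 (adjusted p = 0.15), and it turned to -0.21 at equal poly-A control signal. Both agents against untreated cells, a comparison that shares its untreated arrays with the one on taurolidine alone, also called these 4 genes lower, against 14.1% of all genes (9.35% lower), with CCNF at -2.62 ± 0.50 and UBE2C at 0.49 ± 0.14 (adjusted p = 0.054). Without any 1 line, A-204, SK-LMS-1 or VA-ES-BJ, no member was called in either comparison.

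TRAIL alone against untreated cells called none of the 10 genes by limma, 0 of them had an unadjusted p under 0.05, and 0.0% of all genes were called. Over all tested probe sets 0 were called and 1393 had an unadjusted p under 0.05. The changes of the 10 genes ran from -0.07 ± 0.50 for CCNF to 0.16 ± 0.27 for PLK1.

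**Figure D2:**
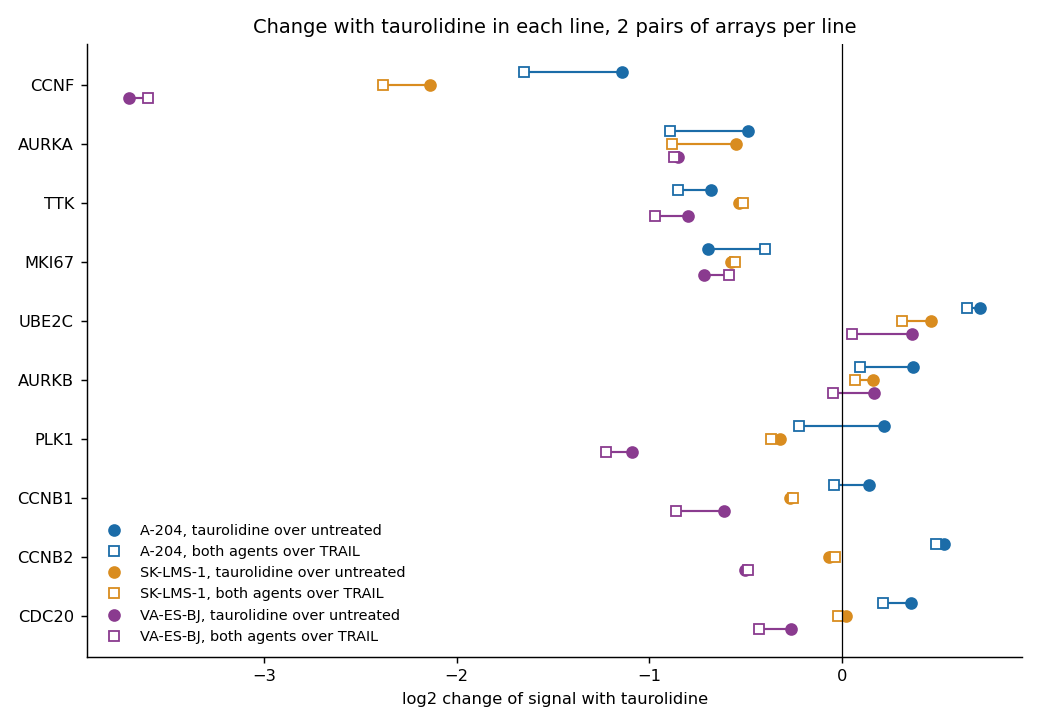
Log2 change of signal with taurolidine for each gene and line, with filled circles for taurolidine over untreated cells, open squares for both agents over TRAIL alone, and a line joining the 2 pairs of the same cell line. CCNB2 and CDC20 have both pairs above 0 in A-204 cells and both below 0 in VA-ES-BJ on the deposited scaling, while at equal poly-A control signal their A-204 means turn to -0.21 and -0.43.

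Within lines, A-204 had 6 of the 10 genes called, 4 lower (AURKA, TTK, MKI67 and CCNF) and 2 higher (CCNB2 and UBE2C, which both turned negative at equal poly-A control signal), against 24.3% of all genes, 16.3% lower and 8.01% higher. SK-LMS-1 had 4 called, the same 4 lower, against 11.4% of all genes, 8.1% lower. VA-ES-BJ had 7 called, all lower, namely those 4 with PLK1, CCNB1 and CCNB2, against 10.4% of all genes, 8.09% lower. The median change of the 10 genes was 0.02 in A-204 cells, -0.30 in SK-LMS-1 cells and -0.69 in VA-ES-BJ, beside 0.02, 0.03 and 0.06 for all genes. The response within a line shares its estimate of spread with the other lines, and the counts moved when a line was left out of the fit. A-204 then had 3 called without SK-LMS-1 cells and 4 without VA-ES-BJ, SK-LMS-1 had 1 called without A-204 and 1 without VA-ES-BJ, and VA-ES-BJ had 3 called without A-204 and 3 without SK-LMS-1. Calls over all 32421 tested probe sets fell as well. In the same order they were 4248 and 4542 against 6424, 1479 and 1556 against 3268, and 1701 and 1809 against 3099.

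As deposited, the change was highest in A-204 cells, intermediate in SK-LMS-1 cells and lowest in VA-ES-BJ for 9 of the 10 genes, all but TTK, an order that held for 7 at equal array medians and for 6 at equal poly-A control signal. It was found in 16.6%, 13.6% and 7.96% of all genes under these scalings in that order. The genes that left it were AURKA and MKI67 under both, whose changes in A-204 and SK-LMS-1 differed by only 0.02 ± 0.22 and 0.02 ± 0.17 as deposited, and AURKB at equal poly-A control signal. Counting whole pairs, CCNB2 and CDC20 were higher in both pairs of A-204 and lower in both pairs of VA-ES-BJ, 2 of 10 against 4.16% of all genes, a direction in A-204 that turned under equal poly-A control signal. Over all genes only this direction and the order of lines given above were counted, and no share was taken for other orders or directions. The change of CCNF, PLK1, CCNB2, CCNB1 and CDC20 in A-204 was above that in VA-ES-BJ by 0.63 to 2.25 (log2). The other 5 differed by 0.10 to 0.47 between these lines. AURKA, TTK and CCNF had no overlap between arrays with and without taurolidine in the lower direction, 3 of 10 against 4.89% of all genes, and UBE2C in the upper direction, 1 of 10 against 1.66% of all genes, as deposited but not on average at equal poly-A control signal.

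The test of the difference itself, an F test that the taurolidine change is equal in the 3 lines, called none of the 10 genes by limma. It called 0.366% of all genes, and 5 of the 10 had an unadjusted p under 0.05, beside 4744 of the 32421 probe sets. CCNB2 came nearest with an adjusted p of 0.085, and over all settings tried this ranged from 0.0038 to 0.51 and passed in 4 of 14. CCNF had an adjusted p of 0.11 (0.013 to 0.38 over settings) and PLK1 0.12 (0.014 to 0.60), each passing in 1 of 14, in the setting that lets the variance depend on brightness. CCNB1 had 0.23 and CDC20 0.28, and the remaining genes lay between 0.40 and 0.93. The difference of A-204 minus VA-ES-BJ was 2.25 ± 0.36 for CCNF (adjusted p = 0.090), 1.15 ± 0.21 for PLK1 (adjusted p = 0.10), 1.00 ± 0.14 for CCNB2 (adjusted p = 0.070), 0.79 ± 0.20 for CCNB1 (adjusted p = 0.17) and 0.63 ± 0.18 for CDC20 (adjusted p = 0.21). In the second tested probe sets it was 0.84 ± 0.35 for CCNF (adjusted p = 0.37) and -0.0014 ± 0.51 for CCNB2. For CCNB1 the second probe set had the larger difference, 1.03 ± 0.16 (adjusted p = 0.080). So the opposite calls of CCNB2 in A-204 cells and VA-ES-BJ stand as values, and the difference between the lines was not past the threshold.

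**Figure D3:**
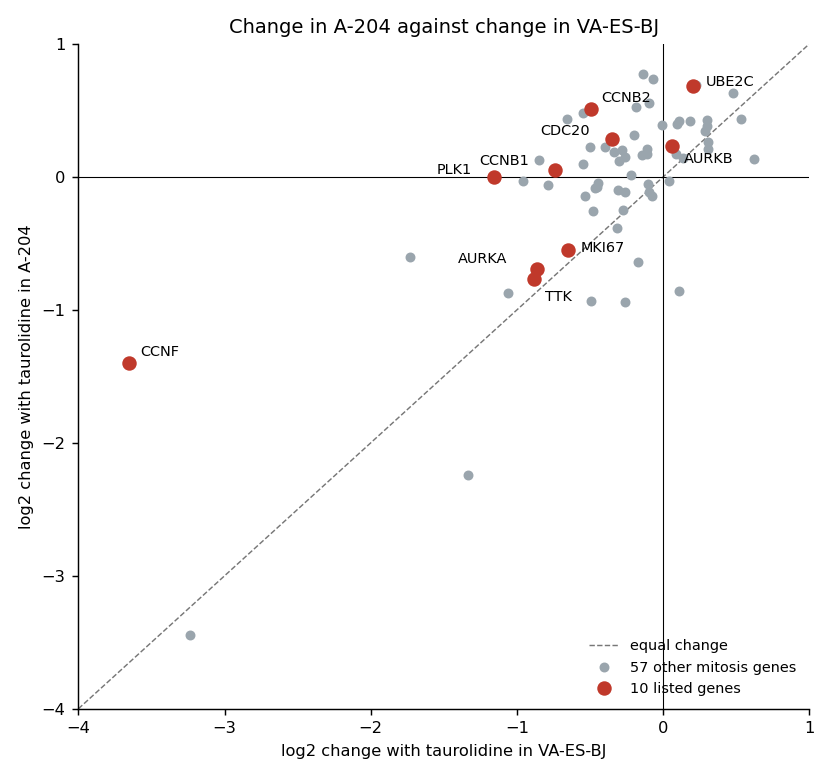
Fitted log2 change with taurolidine in A-204 (vertical) against VA-ES-BJ (horizontal), with the 10 genes in red, 57 other mitosis genes in grey and a dashed line where both lines change equally. As deposited all 10 red points lie above the dashed line, of which AURKA, AURKB, TTK and MKI67 would lie below it at equal poly-A control signal, and CCNF lies farthest from it, at -1.40 in A-204 cells and -3.65 in VA-ES-BJ, and CCNB2 lies above 0 in A-204 cells and below 0 in VA-ES-BJ as deposited, its A-204 value being -0.21 at equal poly-A control signal. The second probe set of CCNF, not plotted, was at -1.70 in A-204 cells and -2.54 in VA-ES-BJ.

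Without taurolidine the lines already differed in these genes, and each line has an untreated and a TRAIL array from which to read the spread. AURKB was 2.36-fold higher in untreated SK-LMS-1 than in untreated A-204, and MKI67 1.80-fold. The order SK-LMS-1, VA-ES-BJ, A-204 was free of overlap for both. For MKI67 the upper gap was narrow, 7889 for untreated SK-LMS-1 against 7779 for untreated VA-ES-BJ. CCNB2 ran SK-LMS-1, A-204, VA-ES-BJ with a 2.29-fold span, and CDC20 ran A-204, SK-LMS-1, VA-ES-BJ with a 1.90-fold span, again with no overlap between neighbours. The upper gap of CDC20 was very small, 13245 for untreated A-204 against 13233 for untreated SK-LMS-1. CCNB2 and CDC20 were both dimmest in VA-ES-BJ, the line in which CCNB2 fell. TTK ran VA-ES-BJ, SK-LMS-1, A-204 with no overlap and a 1.49-fold span. For PLK1 only A-204 stood apart, as the lowest, for CCNB1 and CCNF only VA-ES-BJ, as the highest, and for UBE2C only A-204, as the lowest. AURKA ran VA-ES-BJ, A-204, SK-LMS-1 with a span of 1.06-fold, overlapping between neighbours but not between VA-ES-BJ and SK-LMS-1. How many of all genes separate the lines in this way was not counted.

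A further 58 genes of mitosis, in 6 lists by role, were set beside the 10, and 57 of them were tested. With taurolidine alone 3 rose and 4 fell, 12.3% against 15.2% of all genes, with a median change of -0.09. Among regulators of mitotic entry 4 of 14 passed. CDC25A, the phosphatase that activates CDKs, read 135, 20 and 60 with taurolidine in A-204 cells, SK-LMS-1 and VA-ES-BJ, against 818, 633 and 608 in untreated cells, and fell by 3.32 ± 0.79 (10.00-fold, adjusted p = 0.032). All 3 of its taurolidine signals lay under the table median, and its change was -2.01 with the table median as the added constant. BORA, the activator of Aurora A towards PLK1, read 1438, 666 and 1065, against 2186, 1612 and 3646 in untreated cells, and fell by 1.21 ± 0.25 (adjusted p = 0.021). WEE1, the kinase that inhibits CDK1, fell by 0.72 ± 0.13 (adjusted p = 0.012). PKMYT1, the related inhibitory kinase, rose by 0.60 ± 0.15 (adjusted p = 0.037), which turned to -0.03 at equal poly-A control signal. The regulators that fell include the activators CDC25A and BORA and the inhibitor WEE1.

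Of the anaphase-promoting complex and its substrates 2 of 16 passed. FBXO5, the inhibitor of the complex known as EMI1, read 1276, 2424 and 3117 with taurolidine in A-204 cells, SK-LMS-1 and VA-ES-BJ, against 6265, 8235 and 7483 in untreated cells. It fell by 1.77 ± 0.24 (3.41-fold, adjusted p = 0.0047), and it fell in all 3 lines. ANAPC11, the RING subunit, rose by 0.62 ± 0.12 (adjusted p = 0.014), which turned to -0.01 at equal poly-A control signal. In the spindle checkpoint and Aurora B list 1 of 10 passed, ZWINT, a kinetochore protein, which rose by 0.41 ± 0.10 (adjusted p = 0.033) and turned to -0.22 under that scaling. None of the 7 G2/M transcription factors, 6 condensin and chromosome genes or 4 cytokinesis genes passed.

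**Figure D4:**
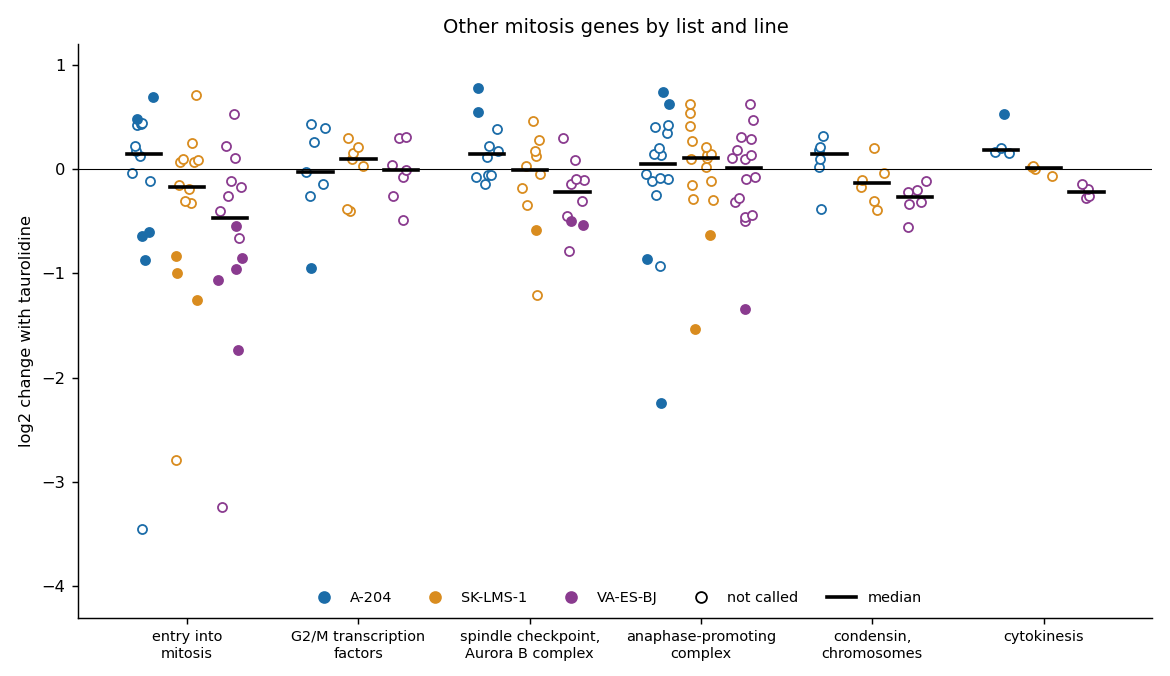
Log2 change with taurolidine of 57 other mitosis genes by list and line, with filled points for genes past an adjusted p of 0.05, open points for the others and a bar at each median, on the deposited scaling. Over all 57 genes the median was 0.14 in A-204 cells, 0.02 in SK-LMS-1 cells and -0.20 in VA-ES-BJ, and at equal poly-A control signal all values in a line shift down by 0.72, 0.52 and 0.53 in that order.

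Over these 57 genes A-204 had 7 higher and 6 lower, SK-LMS-1 had 0 higher and 6 lower, and VA-ES-BJ had 0 higher and 8 lower. These are 22.8%, 10.5% and 14.0% of the 57, beside 24.3%, 11.4% and 10.4% of all genes, which is near the background when both directions are counted together. By direction, all genes had 8.01% higher and 16.3% lower in A-204, 8.1% lower in SK-LMS-1 and 8.09% lower in VA-ES-BJ. In A-204 more of the 57 were called higher than lower, while over all genes more were called lower. This balance of directions was not tested. The genes that rose in A-204 were BIRC5, the survivin subunit of the Aurora B complex, at 0.78 ± 0.12 (adjusted p = 0.0066), the securin gene PTTG1 at 0.74 ± 0.16 (adjusted p = 0.020), the CDK-binding CKS1B, ANAPC11, the checkpoint protein MAD2L1, the midzone protein PRC1 and NEK2. Of these 7 only BIRC5 and PTTG1 rose by more than the 0.72 by which the poly-A controls were higher with taurolidine in A-204. BIRC5 read 16105 with taurolidine and 16386 with both agents in A-204 cells, against 9211 untreated and 9738 with TRAIL, while in SK-LMS-1 it read 9002 and 8705, against 8879 and 8438. CCNA2, cyclin A2, fell in SK-LMS-1 by 1.00 ± 0.11 (adjusted p = 0.0048) and in VA-ES-BJ by 0.96 ± 0.11 (adjusted p = 0.0046). In A-204 its change was -0.03 ± 0.11. NEK2, a centrosomal kinase singled out after its values were seen, rose in A-204 by 0.48 ± 0.12 on the deposited scaling (adjusted p = 0.030) and fell in VA-ES-BJ by 0.55 ± 0.12 (adjusted p = 0.033), as CCNB2 did. None of the 57 genes passed the test of the difference between lines.

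The pattern of the 10 genes was followed over the 12 arrays as the mean of their log2 values after each line's mean was subtracted. The 5 other genes most like it were KNSTRN (r = 0.991), TUBD1 (r = 0.984), NRIP1 (r = 0.983), ZNF678 (r = 0.975) and GCNT2 (r = 0.974). These are Pearson correlations over 12 arrays that share lines and treatments, given as a description. The mean is not scaled by gene, so CCNF, with the largest changes, weighs most in it. Set against the mean of the other 9 genes, r was 0.946 for PLK1, 0.937 for CCNB1 and 0.934 for CCNF, and it was -0.304 for AURKB and -0.570 for UBE2C.

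**Figure D5:**
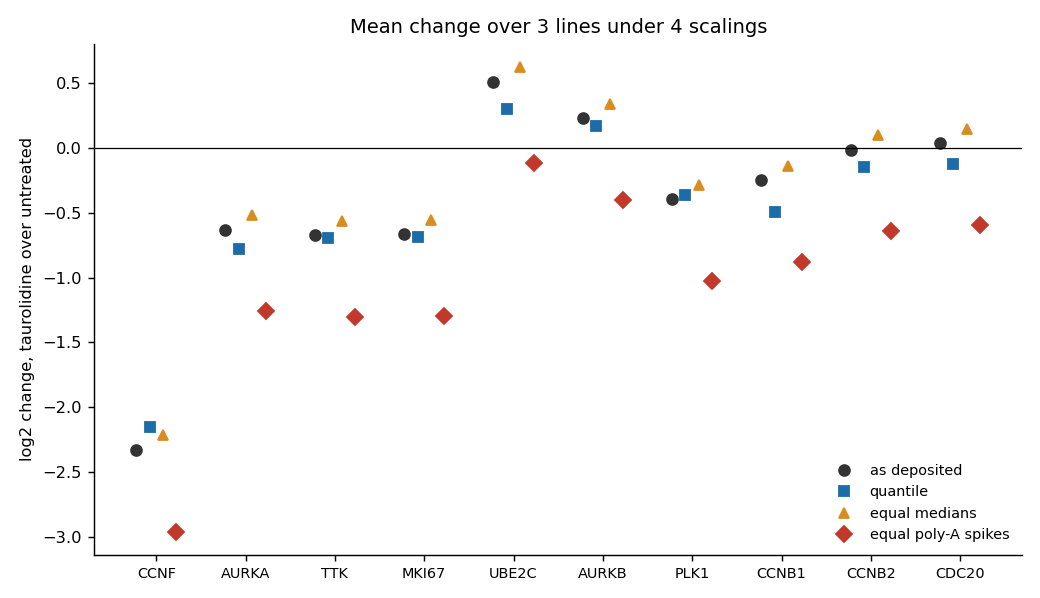
Fitted log2 change with taurolidine over untreated cells, mean of 3 lines, for the 10 genes under 4 scalings of the arrays. CCNF, AURKA, TTK and MKI67 stay below 0 under all 4, and UBE2C lies above 0 under 3 and at -0.12 at equal poly-A control signal.

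The 4 genes called lower on average kept that direction under each of the 4 scalings. Equal poly-A control signal shifts all genes down by the same amount, so it could not have turned a fall. AURKA lay between -1.26 and -0.52, TTK between -1.30 and -0.56, MKI67 between -1.29 and -0.55 and CCNF between -2.96 and -1.64 over all settings tried. The direction of the genes near or above 0 depended on the scaling, as the plot of the 4 scalings shows. UBE2C lay between -0.12 and 0.62, AURKB between -0.40 and 0.34, and CDC20 between -0.59 and 0.19. Whether the total amount of RNA per cell differed with taurolidine was not tested.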

How the data were processed

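Total RNA of 12 samples was made into biotinylated cRNA by the Affymetrix 3' procedure, per the labels' protocols. The authors deposited linear array intensity, made with MAS5, per the submitters' processing notes, with neither a scaling target nor detection calls given in the sources used here. The number of arrays limits the precision. From here log2(intensity + 11.8) was computed, the constant being the 10th percentile of the table, and probe sets above the table median of 137 on at least 3 of 12 arrays were kept (32421, control probe sets left out). Gene symbols came from the platform annotation, updated through Entrez numbers for 41037 of the 41091 probe sets with 1 gene, while 1801 with several genes and 11777 with none were not named. The groups are the 4 treatments, and the cell line is the replicate.

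limma 3.58.1 in R 4.3.3 fitted treatment and line over all 12 arrays (6 residual degrees of freedom), with the line as a block because arrays of the same line are paired, and a second fit gave taurolidine within each line with a common TRAIL term (5 residual degrees of freedom). After subtracting treatment means, arrays correlated at 0.785 to 0.869 inside a line, and at -0.538 to -0.35 between lines. With 3 lines this subtraction by itself pushes the correlations between lines below 0. Those inside a line include the standing differences between lines, so neither range is a test of pairing. Tests were two-sided, and p-values were adjusted by Benjamini-Hochberg over all tested probe sets, with a threshold of 0.05. The fits were tested on simulated data with independent noise, the same spread for all probe sets and no array-wide shift. That test could not show effects of unequal spread or of array scaling. The 10 genes and the lists were chosen with earlier results of these data known. All 10 genes are named, and of each list up to 3 genes a direction with the largest change among those past the threshold, with NEK2 in VA-ES-BJ, CCNA2 in A-204 and the BIRC5 signals in SK-LMS-1 added after their values were seen. The alternatives were another constant or none, no filter, a filter on the mean, quantile normalisation, equal array medians, equal poly-A control signal, 1 probe set per gene, an intensity trend in the variance, no line block, only the 6 arrays compared, no TRAIL term, and leaving out each line. Slide and scan information was not used here.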

Additional observations from a re-analysis of the deposited data

Results flagged for a closer look

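CCNB2 changed with taurolidine in opposite directions between lines, every pair of arrays being higher in A-204 cells and lower in SK-LMS-1 cells and in VA-ES-BJ on the deposited scaling, although the SK-LMS-1 mean was 0.0028 at equal array medians. The change in A-204 was above that in SK-LMS-1 by 0.559 (log2, SE 0.14, adjusted p = 0.18 by limma) and above that in VA-ES-BJ by 1.00 (SE 0.14, adjusted p = 0.070 by limma), so neither difference passed the adjusted threshold.

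CDC20 was higher in both pairs of A-204 and lower in both pairs of VA-ES-BJ, with a difference of 0.634 (log2, SE 0.18, adjusted p = 0.21 by limma), which did not pass. The poly-A controls were higher with taurolidine by 0.72 in A-204 cells and by 0.53 in VA-ES-BJ, and at equal control signal both genes were below 0 in A-204 cells, at -0.21 for CCNB2 and -0.43 for CDC20. The part of total RNA in these differences was not tested.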

How the results depend on the processing

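The counts of called genes among the 10 moved most. With taurolidine alone against untreated cells, 5 were called, against 1 with no filter, 9 at equal poly-A control signal, 0 with only the 6 arrays compared, and 0 to 0 when a line was left out. Over all probe sets 1638 of 54613 were called with no filter, and 0 of 32421 with only the 6 arrays compared. Both agents against TRAIL called 4, against 8 at equal poly-A control signal, 0 with only the 6 arrays compared and 0 to 0 without a line. At equal poly-A control signal 55.9% and 43.1% of all tested probe sets were called lower in these comparisons. Both agents against untreated cells called 4, against 0 with only the 6 arrays compared and 0 to 0 without a line. Without the line as a replicate block, which ignores the pairing of arrays, these 3 comparisons called 0 of the 10 genes each. Over all 32421 probe sets they then called 221, 182 and 203 in the same order. Leaving out a line leaves 8 arrays, and the calls over all 32421 probe sets with taurolidine alone then fell to 0 without A-204, 478 without SK-LMS-1 cells and 58 without VA-ES-BJ, against 4402. Within A-204 cells, 6 were called, against 2 with no filter and 3 to 4 without another line. Within SK-LMS-1, 4 were called, against 1 with no filter, 1 at equal array medians, 8 at equal poly-A control signal and 1 to 1 without another line. Over all probe sets the calls there were 3268 of 32421, against 1207 of 54613 with no filter. They were 2282 at equal array medians, 11431 at equal poly-A control signal, 1479 without A-204 and 1556 without VA-ES-BJ. Within VA-ES-BJ, 7 were called, against 3 with no filter, 4 at equal array medians and 3 to 3 without another line. Over all probe sets the calls there were 3099 of 32421, against 1418 of 54613 with no filter. They were 2313 at equal array medians, 1701 without A-204 and 1809 without SK-LMS-1. The test of the difference between lines called 0, against 1 with the table median as constant, 1 with 1 probe set per gene, 3 with an intensity trend in the variance and 1 with no TRAIL term. Equal poly-A control signal turned the sign of AURKB to -0.40 with taurolidine alone, -0.51 with both agents against TRAIL, -0.49 in A-204 cells, -0.40 in SK-LMS-1 cells and -0.47 in VA-ES-BJ. It turned UBE2C to -0.12, -0.21, -0.037, -0.13 and -0.32 in the same order. CDC20 turned to -0.59 with taurolidine alone, -0.43 in A-204 cells and -0.51 in SK-LMS-1, CCNB1 to -0.67 and CCNB2 to -0.21 in A-204 cells, and ANAPC11 to -0.0069, PKMYT1 to -0.028 and ZWINT to -0.22 with taurolidine alone. Quantile normalisation turned AURKB in VA-ES-BJ to -0.013, PLK1 in A-204 to 0.089, CCNB1 in A-204 to -0.20, and CDC20 to -0.12 with taurolidine alone and -0.15 in SK-LMS-1. Equal array medians turned AURKB to -0.00246 with both agents against TRAIL, and CCNB2 to 0.10 with taurolidine alone and 0.0028 in SK-LMS-1. Leaving out a line moved CCNB2 between -0.28 and 0.23 with taurolidine alone and between -0.26 and 0.23 with both agents against TRAIL, and CDC20 between -0.12 and 0.19 and between -0.22 and 0.10. Most of these values were close to 0 as deposited, and the cause of each turn beyond the shift in scale was not tested. The called rises also turned at equal poly-A control signal. These were UBE2C (0.51), ANAPC11 (0.62), PKMYT1 (0.60) and ZWINT (0.41) with taurolidine alone, and UBE2C (0.68) and CCNB2 (0.51) in A-204. Of the other values, 687 kept their direction and side of the threshold, 130 lost and 20 gained a call.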
